A study of Mus musculus with 8 samples.

Results

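The mitochondrial Slc25 carrier family was examined in liver RNA of mice with a hepatic FOXO1 knockout and of wildtype controls. Members were the protein-coding genes whose symbol in GENCODE mouse release M21 begins with Slc25a and a digit, together with Ucp2, Mtch1 and Mtch2. There were 50 of them among the 25690 genes of the deposited table. Of the 8 libraries 4 are labelled wildtype control (numbered 1, 3, 10 and 12 in their titles) and 4 hepatic FOXO1 knockout (numbered 3, 9, 10 and 11). The labels give the tissue as liver and name no strain, age, sex, diet, Cre driver or other allele. Nothing in them ties each library to an animal of its own, and p-values therefore rest on the spread among these 8 libraries, which may be technical. Levels are FPKM, fragment counts scaled by transcript length and library size, which allow genes to be compared per length.

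Slc25 carriers are proteins of the mitochondrial inner membrane that exchange nucleotides, phosphate, carboxylates, amino acids, cofactors and metals between the cytosol and the matrix. In hepatocytes they connect cytosolic and mitochondrial steps of the urea cycle, gluconeogenesis, fatty acid oxidation and lipid synthesis. A few relatives, among them Mtch1, Mtch2 and Slc25a46, lie in the outer membrane, and Slc25a17 lies in peroxisomes. The coding sequences of the 50 members ran from 795 to 2031 bases with a median of 954, against a median of 1197 for the 21052 protein-coding genes of the table, and 40 of them lay between 850 and 1100 bases. The longest were those of the aspartate/glutamate carriers Slc25a12 (2031 bases) and Slc25a13 (2028 bases).

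The knockout itself was seen in every library. Foxo1 was at 3.35 ± 0.341 FPKM (SD, n = 4) in wildtype and 0.269 ± 0.0743 FPKM in knockout liver. The depth estimated from the FPKM of a single fragment was 26.8 M to 35.1 M fragments per library. Of 12 hepatocyte markers none was at 0 throughout, and their summed FPKM was 61438 to 68871 in wildtype and 43954 to 78274 in knockout libraries, the lowest being knockout 10, where Alb is listed at 0. Of these 12, Hnf4a rose (log2 change 0.43, limma adjusted p = 0.0494) and Cyp2e1 fell (-0.60, 0.0318). The summed level of 10 neutrophil markers was 63.3 FPKM in knockout 3 and 156 in knockout 11, against 3.02 in knockout 9, 6.40 in knockout 10 and 1.53 to 5.27 in wildtype, with Ly6g, Mpo, Elane and Ltf under 1 FPKM throughout. S100a8 and S100a9 made up most of these sums, at 31.4 and 24.3 FPKM in knockout 3 and 77.2 and 57.5 in knockout 11. Of the 3 neutrophil markers tested 0 were called. The summed level of 9 sinusoidal endothelial markers was 63.5 to 82.3 FPKM in wildtype and 37.6 to 63.6 in knockout libraries. Of the 8 tested, 2 fell, against 11.7% of all genes tested. They were Stab1 (log2 change -1.02, limma adjusted p = 0.0148) and Fcgr2b (-0.59, 0.0130). Changes were -0.40, -0.38 and -0.35 for Oit3, Clec4g and Kdr, which did not pass. Nor did Stab2, Cdh5 and Pecam1, at -0.12, -0.059 and 0.010. In bulk tissue, fewer cells of a type and less RNA per cell cannot be told apart. Whether the change was confined to single marker genes was not tested.

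Of the 50 members 39 averaged 1 FPKM or more and were tested. In the knockout liver Slc25a22, Slc25a23 and Slc25a39 were higher and Mtch2, Slc25a47 and Slc25a48 were lower (limma on log2(FPKM + 1), Benjamini-Hochberg adjusted p under 0.05 over 10250 genes). These are 3 members in each direction. Of all genes tested 11.7% were called lower, 2.7% higher and 14.4% in either direction, so the 15.4% of tested members that were called is near the share of all genes. The median log2 change of the tested members was -0.10 (0.0061 with quantile normalization), and that of all genes tested was -0.076. Negative changes made up 61.5% of the members and 62.3% of all genes. Over all genes the calls divided into 277 higher and 1195 lower, and this division moved to 420 and 785 with median-ratio scaling, 470 and 652 with quantile normalization, 426 and 471 with the length trend removed and 472 and 756 with the GC trend removed.

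**Figure D1:**
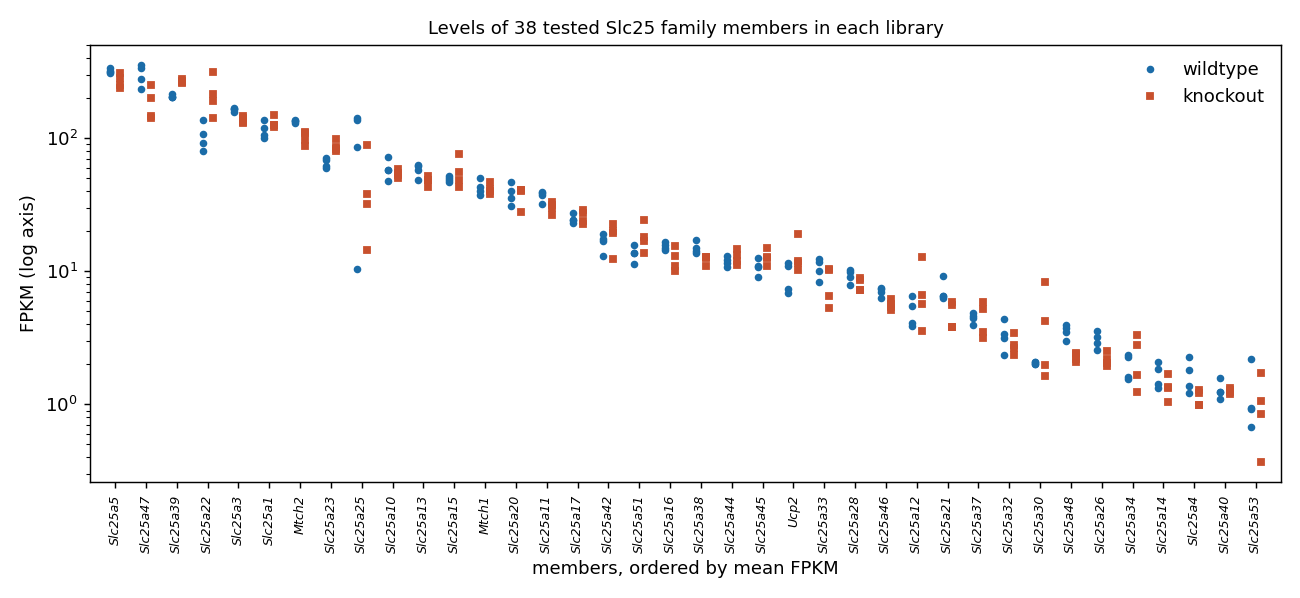
FPKM of 38 of the 39 tested members on a log axis, ordered by their mean, with 4 wildtype libraries (circles) and 4 knockout libraries (squares) each. Slc25a5 leads the family, the levels run down to about 1 FPKM at Slc25a53, and Slc25a25 shows the widest spread, from 10.4 to 141 FPKM in wildtype.

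The family spanned a wide range of levels in liver. A mean of 100 FPKM or more was reached by 7 members, 16 lay between 10 and 100, 16 between 1 and 10 and 11 below 1. Slc25a5, an ADP/ATP carrier, stood first with 320 ± 11.1 FPKM in wildtype, followed over all libraries by Slc25a47, Slc25a39, Slc25a22 and Slc25a3. The wildtype ranges of Slc25a5 (310 to 335 FPKM) and Slc25a47 (234 to 358 FPKM) overlapped, so that their order is not fixed beyond the spread. These 5 members held 54.4% to 56.2% of the summed FPKM of the family in wildtype libraries and 52.4% to 61.2% in knockout libraries. Slc25a22 is among them through its knockout values. Its wildtype mean of 104 FPKM was below those of Mtch2 (135) and Slc25a1 (116). The family sum was 1977 ± 104 FPKM in wildtype and 1893 ± 166 in knockout liver, with overlapping ranges of 1879 to 2106 and 1719 to 2096.

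Members below the filter were not tested. Slc25a29, a carrier of basic amino acids, was at 0.894 ± 0.152 FPKM in wildtype and 0.636 ± 0.250 in knockout liver. Slc25a35, Slc25a36, Slc25a27 and Slc25a24 had wildtype means of 0.507, 0.505, 0.390 and 0.203 FPKM and knockout means of 0.530, 0.413, 0.327 and 0.225 FPKM. Slc25a18, Slc25a2 and Slc25a43 did not exceed 0.105 FPKM in any library. Slc25a31, an ADP/ATP carrier known from testis, was at 0.858 FPKM in wildtype 12 and at most at 0.112 in the other libraries. Slc25a41 and Slc25a54 are listed at 0 in every library, which need not mean absence.

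Bases before an annotated start are shown for 5 of the 6 called members, all but Slc25a22 with its 3 annotated starts. These genes differ between the groups, and their promoters can be read side by side for motifs. The sequences are RefSeq promoters of build GRCm38.p6, 5′ to 3′ on the gene's strand, within the 250 bases before the annotated start and without bases that GENCODE places in an exon. Capitals mark matches on either strand, lying wholly in the bases shown, to 6 motifs: the forkhead motifs GTAAACA and CAAAACA, the NRF1 motif (GCGCA, any base, then GCGC), the cAMP response element TGACGTCA, the GC box GGGCGG and CCAAT, which do not overlap in these windows. Raised in the knockout were Slc25a39 (chr11:102407545-102407767, minus strand) and Slc25a23 (chr17:57059864-57060113, minus strand).
Slc25a39: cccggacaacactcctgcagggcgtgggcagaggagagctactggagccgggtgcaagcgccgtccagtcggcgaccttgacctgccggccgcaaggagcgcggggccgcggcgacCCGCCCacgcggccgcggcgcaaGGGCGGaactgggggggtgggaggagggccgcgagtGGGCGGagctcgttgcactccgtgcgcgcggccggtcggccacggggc
Slc25a23: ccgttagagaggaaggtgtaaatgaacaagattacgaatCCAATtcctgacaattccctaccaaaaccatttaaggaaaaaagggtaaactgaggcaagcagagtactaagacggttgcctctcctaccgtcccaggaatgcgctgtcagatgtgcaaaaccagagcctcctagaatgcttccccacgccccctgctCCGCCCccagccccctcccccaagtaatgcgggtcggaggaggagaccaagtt
Lowered were Mtch2 (chr2:90846905-90847154, plus strand), Slc25a47 (chr12:108850879-108851128, plus strand) and Slc25a48 (chr13:56438105-56438354, plus strand).
Mtch2: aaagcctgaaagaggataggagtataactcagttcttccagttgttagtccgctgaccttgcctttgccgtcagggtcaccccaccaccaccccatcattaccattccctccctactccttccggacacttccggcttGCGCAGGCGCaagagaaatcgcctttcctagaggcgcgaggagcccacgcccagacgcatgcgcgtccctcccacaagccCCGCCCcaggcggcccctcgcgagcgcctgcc
Slc25a47: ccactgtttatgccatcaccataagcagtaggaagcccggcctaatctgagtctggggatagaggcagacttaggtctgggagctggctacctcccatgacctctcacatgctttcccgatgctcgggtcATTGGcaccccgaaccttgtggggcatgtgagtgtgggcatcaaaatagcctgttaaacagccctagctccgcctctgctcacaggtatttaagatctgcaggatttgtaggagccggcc
Slc25a48: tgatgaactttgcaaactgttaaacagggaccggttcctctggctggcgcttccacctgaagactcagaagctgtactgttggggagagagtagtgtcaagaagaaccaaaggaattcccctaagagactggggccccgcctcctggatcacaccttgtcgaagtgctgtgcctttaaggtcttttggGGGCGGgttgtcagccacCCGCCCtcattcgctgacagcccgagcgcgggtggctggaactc

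The Slc25a39 stretch held 3 GC boxes, at positions -134, -111 and -75 from the start, and that of Slc25a48 held 2, at -62 and -44. The Mtch2 window held the NRF1 motif at -112 and a GC box at -32. Slc25a23 had a CCAAT match at -211 and a GC box at -53, and Slc25a47 had 1 CCAAT match, at -120. For Slc25a23, with 2 annotated starts, that at the 5′ end of its GENCODE gene was used. The Slc25a22 window, not printed, lies before the start nearest its GENCODE 5′ end, and its 220 bases outside exons held no match. Over the full 250 bases of its 3 starts, Slc25a22 had GC box and CCAAT matches. The RefSeq starts used here for Slc25a47 and Slc25a39 lie 15083 and 429 bases downstream of the 5′ ends of their GENCODE genes. The bases shown for these genes thus lie within the gene intervals, outside annotated exons. RefSeq promoters were matched for 39 of the 50 members, with 50 starts in all. Over the 250 bases, GTAAACA was in 0 of these 50, against 3.17% of all 32851 promoters and 2.45% of the 10048 promoters of tested genes. CAAAACA was in 0 of 50, against 5.56% and 3.96%. At shares this low, 0 of 50 was not read as a departure. GC boxes were in 72.0% of the 50 member promoters and in 32.7% of all promoters. Among promoters of tested genes the GC box shares were 74.4% of 43 for members and 56.7% of 10048 for all genes. NRF1 matches were in 3 of the 50 member promoters and 3.74% of all promoters, and in 4.65% of the 43 and 8.51% of the 10048 promoters of tested members and genes. No match says only that these exact letters are not in this window. Other spellings of a motif, those of forkhead sites included, were not searched.

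**Figure D2:**
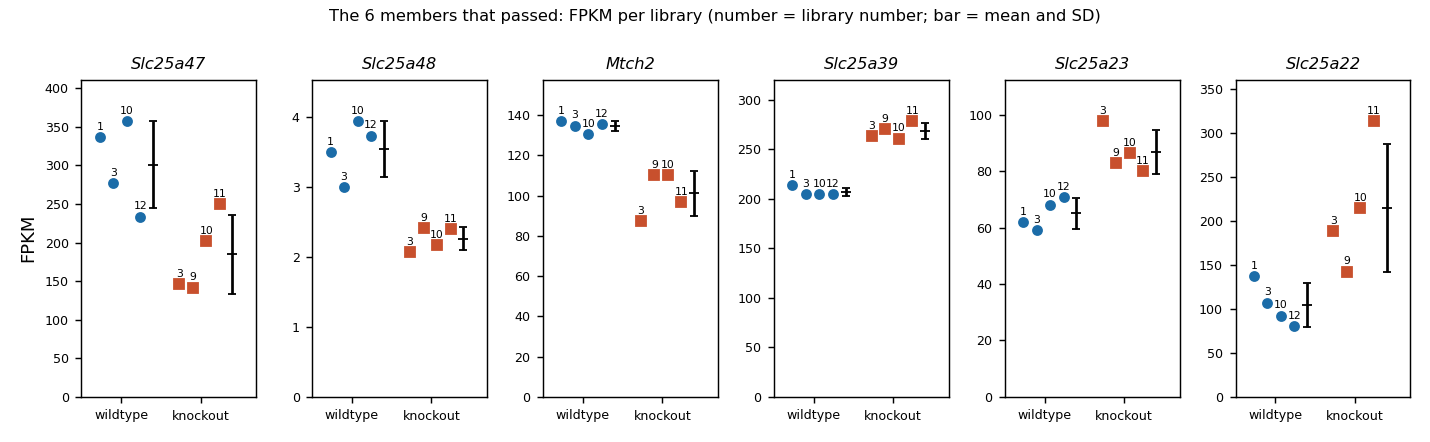
FPKM per library of the 6 members that passed, on axes that start at 0, with library numbers beside the points and the mean and SD of each group as a bar. The groups are apart for Slc25a48, Mtch2, Slc25a39, Slc25a23 and Slc25a22, while for Slc25a47 knockout 11 (249 FPKM) lies above wildtype 12 (234 FPKM).

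Among carriers of cofactors, Slc25a39 rose. It is known for bringing glutathione into mitochondria and lies on chromosome 11, 102402985 to 102407946 (mm10, minus strand). Its FPKM was 213, 205, 205 and 205 in wildtypes 1, 3, 10 and 12, and 263, 270, 261 and 278 in knockouts 3, 9, 10 and 11. The knockout libraries all lay above the wildtype libraries, and the spread within each group was small. The mean went from 207 ± 4.36 to 268 ± 8.02 FPKM, 1.30 times the wildtype level, with a log2 change of 0.37 (SE 0.08, limma adjusted p = 0.0135). Without knockouts 3 and 11 the log2 change was 0.36 (limma adjusted p = 0.0416), with the trend along transcript length removed it was 0.54, and with quantile normalization it was 0.63. Its close relative Slc25a40 was at 1.29 ± 0.203 FPKM in wildtype and 1.26 ± 0.0564 in knockout liver.

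The other cofactor carriers did not pass. Slc25a26, which imports S-adenosylmethionine, was lower in each knockout library (1.95 to 2.51 FPKM) than in any wildtype library (2.55 to 3.54 FPKM), with a log2 change of -0.35 (limma adjusted p = 0.0548). Named after its values were seen, it passed in 2 of 20 alternatives, and its change was -0.22 with the length trend removed (0.225). The mitochondrial NAD carrier gene Slc25a51 was at 13.6 ± 1.85 and 18.3 ± 4.37 FPKM, with knockout 11 highest at 24.2. Slc25a42, a coenzyme A carrier, was at 16.6 ± 2.56 and 18.7 ± 4.42 FPKM (log2 change 0.14 with SE 0.18, limma adjusted p = 0.656). Slc25a16 was at 15.5 ± 0.969 and 12.3 ± 2.39 FPKM (log2 change -0.32, limma adjusted p = 0.127). This gene too was named after its values were seen, and it passed in 1 of 21 alternatives, with changes from -0.42 to -0.12. Slc25a17, for peroxisomal cofactors, had group means of 24.7 and 25.7 FPKM, and Slc25a32, for folate, of 3.31 and 2.81 FPKM.

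Among amino acid carriers, Slc25a22, a glutamate carrier gene, had the largest change of the called members. It lies on chromosome 7, 141429744 to 141437892 (mm10, minus strand). Its FPKM was 138, 107, 92.5 and 80.5 in wildtypes 1, 3, 10 and 12, and 189, 142, 215 and 314 in knockouts 3, 9, 10 and 11. The groups did not overlap, but knockout 9 was only just above wildtype 1, and knockout 11 was far above the others. The mean rose 2.06-fold, from 104 ± 24.7 to 215 ± 72.4 FPKM, with a log2 change of 1.005 (SE 0.24, limma adjusted p = 0.0238). Knockout 11 held the highest of these values, knockout 10 the second and knockout 3 the third. Summed neutrophil markers, given above, were high in knockouts 3 and 11 and stood at 6.40 FPKM in knockout 10. Without knockout 3 alone the log2 change was 1.05 (limma adjusted p = 0.0482), and without knockout 11 alone 0.80 (0.0385), and both passed. Without knockouts 3 and 11 together it was 0.77 and did not pass (limma adjusted p = 0.0945). Whether the cells behind those markers bear on Slc25a22 was not tested. The call was also lost on leaving out wildtype 3, 10 or 12 alone (highest limma adjusted p = 0.0673), with no filter on low values (0.0615) and after removal of the length trend (0.0516), where the log2 change was 1.03.

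The carriers that serve the urea cycle did not pass. Slc25a15, the ornithine/citrulline carrier, was at 49.3 ± 2.12 FPKM in wildtype and 55.7 ± 14.4 in knockout liver (log2 change 0.14, SE 0.16, limma adjusted p = 0.602). Knockout 11 stood at 75.8 FPKM and knockout 10 at 42.8, outside the wildtype range of 47.2 to 52.0 on both sides. Slc25a13, the aspartate/glutamate carrier called citrin, was at 57.5 ± 6.30 and 47.9 ± 3.78 FPKM (log2 change -0.25 with SE 0.11, limma adjusted p = 0.139). Its paralog Slc25a12 was at 4.996 ± 1.24 and 7.20 ± 3.98 FPKM, with knockout 3 at 12.8 (log2 change 0.36, SE 0.30, limma adjusted p = 0.465). Slc25a38, a glycine carrier needed for heme synthesis, was at 14.97 ± 1.55 and 12.3 ± 0.903 FPKM, and its groups did not overlap (log2 change -0.27, limma adjusted p = 0.101). Slc25a44, a carrier of branched-chain amino acids, was at 11.9 ± 0.914 and 12.8 ± 1.57 FPKM.

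**Figure D3:**
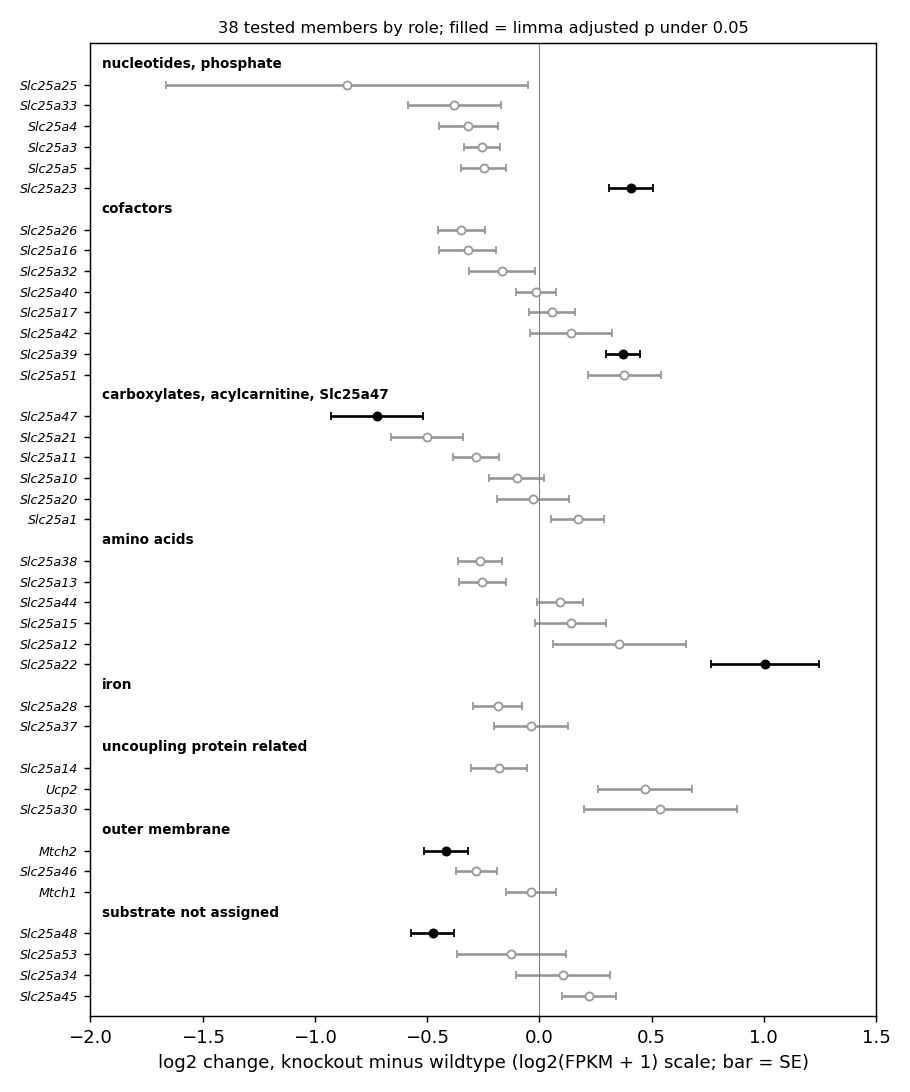
Log2 change of knockout minus wildtype on the log2(FPKM + 1) scale, with SE, for 38 of the 39 tested members grouped by role; filled points passed (limma adjusted p under 0.05). The called members are spread over 6 of the 8 role groups, and Slc25a25 has the widest error (SE 0.81).

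Among carriers of nucleotides and phosphate, Slc25a23 rose. It encodes a calcium-regulated ATP-Mg/phosphate carrier and lies on chromosome 17, 57043711 to 57059863 (mm10, minus strand). Its FPKM was 61.9, 59.2, 68.1 and 70.9 in wildtypes 1, 3, 10 and 12, and 97.8, 82.7, 86.5 and 80.1 in knockouts 3, 9, 10 and 11. Each knockout library lay above each wildtype library, with knockout 3 the highest. The log2 change was 0.41 (SE 0.10, limma adjusted p = 0.0240), and the mean was 1.33 times that of wildtype. Leaving out wildtype 1, wildtype 3, wildtype 10 or knockout 3 alone ended the call (highest limma adjusted p = 0.0788), as did leaving out knockouts 3 and 11 together (log2 change 0.38, 0.0663). An antisense gene, Gm17168, overlaps 3.17% of the exonic bases of Slc25a23, with strand handling not given in the sources used here.

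Slc25a25, another calcium-regulated ATP-Mg/phosphate carrier gene, varied more within the groups than between them. Its FPKM was 141, 138, 86.0 and 10.4 in wildtypes 1, 3, 10 and 12, and 14.5, 89.1, 38.3 and 32.3 in knockouts 3, 9, 10 and 11. Wildtype 12 was the lowest library of all, and the log2 change was -0.86 (SE 0.81, limma adjusted p = 0.524). It passed in 0 of 21 alternatives. It was -1.71 without wildtype 12 (limma adjusted p = 0.0733), -0.49 without wildtype 1, -0.50 without wildtype 3, -0.44 without knockout 3 and -0.16 without knockouts 3 and 11.

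The carriers that supply ATP synthase did not pass. Slc25a3, the phosphate carrier, was at 164 ± 5.06 FPKM in wildtype and 137 ± 7.57 in knockout liver. All 4 knockout libraries (131 to 147 FPKM) lay below the wildtype libraries (157 to 170 FPKM), and the log2 change was -0.25 (SE 0.08, limma adjusted p = 0.0643). It passed in 2 of 21 alternatives, and was -0.026 with quantile normalization (limma adjusted p = 0.844), -0.14 with the GC trend removed (0.246) and -0.16 with median-ratio scaling (0.155). Slc25a5 was at 270 ± 31.6 FPKM in knockout liver (log2 change -0.25, SE 0.10, limma adjusted p = 0.135). That change was -0.0092 with the length trend removed and -0.033 with quantile normalization. The gene shares 46.6% of the 50-base stretches of its longest transcript with other annotated genes, chiefly the copy Gm5560, so its level is uncertain. Its paralog Slc25a4, known as the ADP/ATP carrier of muscle and heart, was at 1.67 ± 0.473 and 1.12 ± 0.154 FPKM (log2 change -0.32 with SE 0.13, limma adjusted p = 0.139). Slc25a33, a pyrimidine nucleotide carrier, was at 10.6 ± 1.85 and 8.10 ± 2.59 FPKM.

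Slc25a47, a liver-enriched carrier gene grouped here beside the carriers of carboxylates and acylcarnitines, fell. It lies on chromosome 12, 108836046 to 108856815 (mm10, plus strand). Its FPKM was 337, 277, 358 and 234 in wildtypes 1, 3, 10 and 12, and 146, 142, 201 and 249 in knockouts 3, 9, 10 and 11. Knockouts 3, 9 and 10 were below every wildtype library, and knockout 11 was not. The mean went from 301 ± 56.7 to 185 ± 51.1 FPKM, 0.613 of the wildtype level, with a log2 change of -0.72 (SE 0.20, limma adjusted p = 0.0447). The call was lost on leaving out wildtype 1, 3 or 10 or knockout 3, 9 or 10 alone (highest limma adjusted p = 0.118) and on leaving out knockouts 3 and 11 together (-0.81, 0.0563). It was also lost after removal of the length trend (-0.58, 0.108) or of the GC trend (-0.67, 0.0690), under median-ratio scaling (-0.63, 0.106) or quantile normalization (-0.49, 0.132), and with no filter on low values (0.0975). Slc25a29, its neighbour on the chromosome, was not tested.

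The carboxylate carriers of intermediary metabolism did not pass. Slc25a1, which exports citrate for lipid synthesis, was at 116 ± 16.3 FPKM in wildtype and 130 ± 12.2 in knockout liver (log2 change 0.17, SE 0.12, limma adjusted p = 0.370), and it passed in 1 of 21 alternatives, with changes from 0.11 to 0.39. Slc25a10, the dicarboxylate carrier, was at 58.7 ± 10.1 and 54.1 ± 3.49 FPKM (log2 change -0.10, limma adjusted p = 0.635). The oxoglutarate/malate carrier gene Slc25a11 was at 36.95 ± 3.395 and 30.2 ± 2.94 FPKM (log2 change -0.28, limma adjusted p = 0.102). Slc25a20, which carries acylcarnitines into the matrix for oxidation, was at 38.3 ± 6.88 and 37.6 ± 6.43 FPKM (log2 change -0.027 with SE 0.16, limma adjusted p = 0.931). Slc25a21, for oxodicarboxylates, was at 7.13 ± 1.36 and 4.77 ± 1.10 FPKM with groups that did not overlap (log2 change -0.50, limma adjusted p = 0.0665). Named after its values were seen, it passed in 1 of 21 alternatives and was -0.26 without knockouts 3 and 11 (0.327).

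Among relatives in the outer membrane, Mtch2 fell. It is known as an insertase for membrane proteins and lies on chromosome 2, 90847155 to 90866810 (mm10, plus strand). Its FPKM was 137, 135, 131 and 136 in wildtypes 1, 3, 10 and 12, and 87.3, 110, 110 and 96.8 in knockouts 3, 9, 10 and 11. The wildtype libraries were close together and all above the knockout libraries. The mean went from 135 ± 2.71 to 101.2 ± 11.2 FPKM, 0.751 of the wildtype level, with a log2 change of -0.42 (SE 0.10, limma adjusted p = 0.0216). It was -0.34 with the length trend removed (0.0308) and -0.19 with quantile normalization, where it did not pass (0.189). Nor did it pass when any 1 wildtype library was left out (highest limma adjusted p = 0.0692), or without knockouts 3 and 11 (-0.29, 0.0696). Mtch1 was at 42.8 ± 5.64 and 41.5 ± 3.72 FPKM (log2 change -0.038 with SE 0.11, limma adjusted p = 0.854). Slc25a46 was at 7.03 ± 0.516 and 5.61 ± 0.474 FPKM, with groups that did not overlap (log2 change -0.28, limma adjusted p = 0.0689). Also named after its values were seen, it passed in 2 of 21 alternatives and was -0.15 with the GC trend removed (0.259).

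Iron carriers and relatives of the uncoupling proteins held no called member. The mitoferrin genes Slc25a28 and Slc25a37 were at 9.21 ± 1.05 and 4.46 ± 0.404 FPKM in wildtype, and at 7.98 ± 0.873 and 4.43 ± 1.31 in knockout liver (log2 changes -0.19 and -0.037, limma adjusted p = 0.293 and 0.906). Knockouts 9 and 10 were above all wildtype libraries for Slc25a37, at 5.89 and 5.17 FPKM, and knockouts 3 and 11 below them, at 3.49 and 3.16. The summed level of 10 erythroid markers was 1431 to 5782 FPKM in wildtype and 1067 to 3560 in knockout libraries, and 0 of the 6 tested were called. Ucp2 was at 10.9, 11.6, 7.41 and 6.90 FPKM in wildtypes 1, 3, 10 and 12, and at 11.96, 10.3, 18.9 and 11.5 in knockouts 3, 9, 10 and 11 (log2 change 0.47, SE 0.21, limma adjusted p = 0.166). Knockout 10, the highest for Ucp2, also had the highest summed level of 11 Kupffer cell and macrophage markers, 133 FPKM against 88.0 to 129 elsewhere, and 0 of the 10 tested markers were called. The part of those cells in the Ucp2 value was not tested.

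Slc25a30, named after its values were seen, separated the knockout libraries from each other. It was at 2.07, 2.08, 2.01 and 2.004 FPKM in the wildtype libraries, at 4.24 in knockout 9 and 8.32 in knockout 10, while knockouts 3 and 11 were at 1.63 and 1.97. The log2 change was 0.54 (SE 0.34, limma adjusted p = 0.328) over all libraries, 1.20 without knockouts 3 and 11 (limma adjusted p = 0.0214) and 0.18 without knockout 10 alone (0.623). Knockouts 3 and 11 were the knockout libraries below all wildtype libraries, so the pass without them is not separate evidence. Slc25a14, a relative known from brain, was at 1.67 ± 0.357 and 1.35 ± 0.264 FPKM.

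Carriers with no role assigned here included one called member, Slc25a48, on chromosome 13, 56438355 to 56474239 (mm10, plus strand). Its FPKM was 3.50, 2.999, 3.94 and 3.74 in wildtypes 1, 3, 10 and 12, and 2.07, 2.42, 2.18 and 2.39 in knockouts 3, 9, 10 and 11. The groups did not overlap. The mean was 0.639 of the wildtype level and the log2 change was -0.47 (SE 0.10, limma adjusted p = 0.0124). Without knockouts 3 and 11 the log2 change was -0.46 and did not pass (limma adjusted p = 0.0554), and with the length trend removed it was -0.41 (0.0303). Slc25a45, Slc25a34 and Slc25a53 had wildtype means of 10.9, 1.95 and 1.18 FPKM and knockout means of 12.8, 2.25 and 0.997 FPKM.

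Groups that did not overlap were seen for 10 of the 39 tested members, 25.6%, against 21.3% of all genes tested. These were Slc25a22, Slc25a23 and Slc25a39 with higher values, and Mtch2, Slc25a3, Slc25a21, Slc25a26, Slc25a38, Slc25a46 and Slc25a48 with lower values in the knockout.

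Shifts between close relatives were compared as FPKM ratios within each library, which scaling of a library does not alter. Slc25a5 exceeded Slc25a4 136-fold to 256-fold in wildtype and 195-fold to 283-fold in knockout libraries. This ratio is uncertain, since Slc25a4 was at only 0.986 to 2.27 FPKM and Slc25a5 shares 46.6% of its 50-base stretches with other genes. Slc25a13 exceeded Slc25a12 7.45-fold to 15.8-fold in wildtype and 3.33-fold to 14.4-fold in knockout libraries. For Slc25a28 over Slc25a37 the ratio was 1.998 to 2.14 in wildtype and 1.40 to 2.73 in knockout libraries. Mtch2 exceeded Mtch1 2.69-fold to 3.62-fold and 1.87-fold to 2.77-fold, a log2 difference of -0.38. None of the 4 ratios passed an exact two-sided permutation test, with p = 0.257, 0.229, 0.429 and 0.0571 in that order and 0.343, 0.343, 0.429 and 0.229 after Benjamini-Hochberg adjustment. The smallest p that 4 against 4 libraries allow is 0.0286, so that 1 ratio alone could not go below 0.114 after adjustment over 4.

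**Figure D4:**
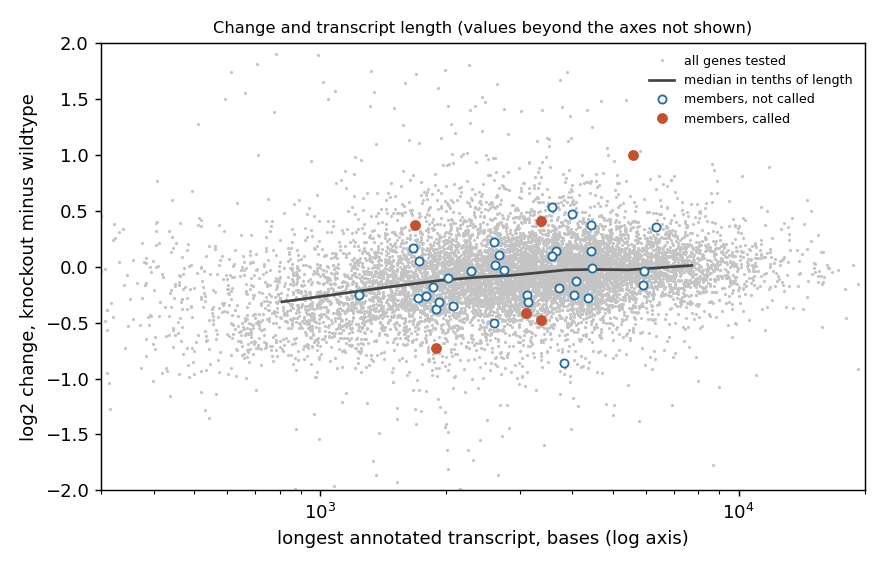
Log2 change of knockout minus wildtype against the longest annotated transcript in bases (log axis) for all tested genes (grey), with the median in 10 classes of length as a line and the members as circles, filled where called. The median runs from -0.31 in the shortest of 10 length classes to 0.012 in the longest, and the tested members have a median length of 3121 bases.

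Transcript length moved with the change over all genes. The longest transcripts of Slc25a22, Slc25a23 and Slc25a39, which rose, have 5590, 3362 and 1685 bases, and those of Mtch2, Slc25a47 and Slc25a48, which fell, have 3103, 1890 and 3374 bases. The median log2 change was -0.31 in the shortest of 10 length classes and 0.012 in the longest. The tested members had a median transcript length of 3121 bases, close to the 3064 of all genes tested. With the trend removed, 2 members were lower and 2 higher, and the median change of the members was -0.0092.

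Genes that work beside the carriers were read from 5 lists with 58 tested genes, of which 11 fell and 0 rose (11.7% and 2.7% of all genes). In the import machinery, which brings carriers through the outer membrane and inserts them into the inner one, 5 of 16 fell. Tomm7 went from 64.6 ± 7.20 to 27.7 ± 5.84 FPKM (log2 change -1.21 with SE 0.15, limma adjusted p = 0.00329). The small chaperone genes Timm13, Timm10 and Timm9 of the intermembrane space fell by 0.63, 0.54 and 0.61 on the log2 scale, and Tomm5, added after its value was seen, fell by 0.37. Every knockout library lay below every wildtype library for these 5, which were picked by their calls, so this is not separate evidence. Such a gap was found in 7 of the 16 tested import genes (43.75%), against 21.3% of all genes tested. Apart from Timm9 (2564 bases) the transcripts of the 5 called genes are short, at 690 to 1225 bases. With the length trend removed the changes of Tomm7, Timm13 and Timm9 were -0.95, -0.39 and -0.51 and passed, while those of Timm10 (-0.19) and Tomm5 (-0.023) did not (limma adjusted p = 0.210 and 0.890). Timm9 was also lost without knockouts 3 and 11 (-0.39, 0.0644) and with quantile normalization (-0.46, 0.0525). Tomm5 was also lost without knockouts 3 and 11 (-0.38, 0.0657), with quantile normalization (-0.20, 0.186), median-ratio scaling (-0.28, 0.142), the GC trend removed (-0.27, 0.145), no filter (0.0626), and on leaving out any 1 library other than knockout 11 (highest limma adjusted p = 0.124).

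Other transporters of the inner membrane, and Tspo of the outer one, formed a list in which 4 of 12 tested genes fell. The mitochondrial pyruvate carrier, which belongs to another protein family and admits pyruvate to the matrix, is encoded by Mpc1 and Mpc2. Mpc2 was at 460, 401, 386 and 419 FPKM in wildtypes 1, 3, 10 and 12, and at 157, 174, 210 and 199 in knockouts 3, 9, 10 and 11. Its knockout mean was thus 185 ± 23.9 against 417 ± 32.1 FPKM, with a log2 change of -1.17 (SE 0.11, limma adjusted p = 0.00187), and it was -1.13 with the length trend removed (0.00347). Mpc1 went from 249 ± 23.1 to 163 ± 7.35 FPKM (log2 change -0.61, limma adjusted p = 0.00507, -0.32 with the length trend removed, 0.04997, and -0.35 with quantile normalization, 0.0322). Tspo, a cholesterol-binding protein gene, went from 51.3 ± 1.62 to 34.9 ± 4.09 FPKM (-0.55, 0.00806), and lost its call after removal of the length trend (-0.23, 0.131). Sfxn5, of a family that includes mitochondrial serine carriers, went from 4.53 ± 0.139 to 3.15 ± 0.556 FPKM (-0.42, 0.0335), and lost its call without knockouts 3 and 11 (-0.32, 0.0870) and on leaving out knockout 3 or any 1 wildtype library (highest limma adjusted p = 0.0968). It was also lost after removal of the length trend (-0.38, 0.0535) or the GC trend (-0.34, 0.0504), with median-ratio scaling (-0.35, 0.0510) or quantile normalization (-0.37, 0.0508), and with no filter (0.0678).

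**Figure D5:**
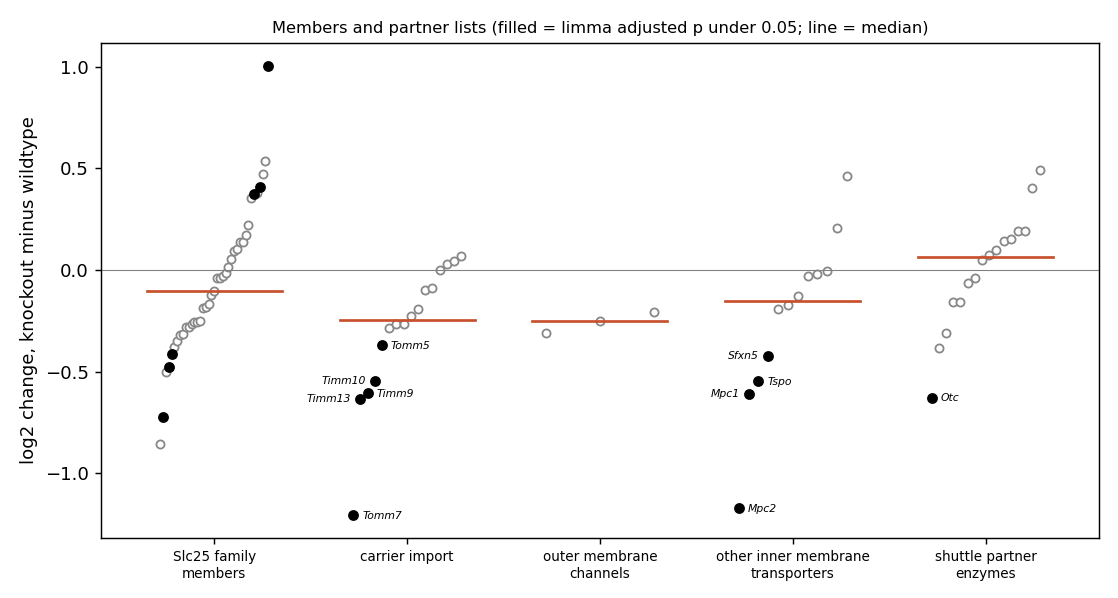
Log2 change of knockout minus wildtype for the tested members and for the tested genes of 4 of the 5 partner lists, with filled points for limma adjusted p under 0.05 and a line at each median. Called partner genes all lie below 0, with Tomm7 (-1.21) and Mpc2 (-1.17) the lowest, while called members lie on both sides of 0.

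Partner enzymes of the shuttles and of the urea cycle held 1 called gene among 16. This was Otc, which makes the citrulline that Slc25a15 exports, and it went from 276 ± 14.9 to 180 ± 30.6 FPKM (log2 change -0.63 with SE 0.12, limma adjusted p = 0.0118). With quantile normalization it was -0.39 and did not pass (0.0721). The outer membrane channels Vdac1, Vdac2 and Vdac3, through which the carriers' substrates reach them, had log2 changes of -0.21, -0.25 and -0.31, and 0 of the 3 passed (limma adjusted p = 0.172, 0.141 and 0.0816). The median changes were -0.25 for import, -0.15 for other transporters, 0.06 for shuttle and urea cycle enzymes and -0.21 for partners of the heme and iron pathways, against -0.076 for all genes tested.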

How the data were processed

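Liver RNA libraries of 4 wildtype and 4 knockout samples were compared. Per the submitters' processing notes, TopHat2 2.1.0, HTSeq, Cufflinks 2.2.1 and build mm10 were used, with roles, annotation and strand handling not given in the sources used here. Values per Ensembl gene were deposited as FPKM, a unit read from the values and these tools. Symbols, positions and transcript lengths came from GENCODE M21, which named 24807 of 25690 genes. Depth was estimated from the FPKM of 1 fragment in genes with 1 transcript of over 1500 bases.

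Genes averaging 1 FPKM or more were fitted as log2(FPKM + 1) with limma 3.58.1 in R 4.3.3 (genotype as the single term, mean trend, two-sided, Benjamini-Hochberg over 10250 genes). This scale understates changes of low genes. Ratios were tested in scipy 1.17.1. Data with 10250 genes were also simulated for this comparison. In them limma called 99% of 100 genes given a log2 change of 2 and 89% of 100 given a change of 1. Of these calls 6.47% were false, and 0 calls were made with no change. The simulated noise was independent for each gene and library, without a length trend or differences in cell mixture. Changes below 1 were not simulated, so these rates do not carry over to the calls reported here.

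Members, lists and alternatives were chosen with earlier results of these data known. Changes are given for the members that passed, for 21 members named for their place in metabolism whether or not they passed, for the Vdac genes, and for up to 4 passing genes of each partner list. Slc25a16, Slc25a21, Slc25a26, Slc25a30, Slc25a46 and Tomm5 were added after their values were seen. Values of 1 member and 1 partner gene are not reported here.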

Additional observations from a re-analysis of the deposited data

Results flagged for a closer look

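In each group of 4 libraries the gap between the highest or lowest library and its nearest neighbour was set against the group's range on the log2(FPKM + 1) scale, and a share above Dixon's 95% value marked a library as apart. Of 78 groups of tested members 4 were marked, and chance marks about 1 in 20. Slc25a39 was at 213 FPKM in wildtype 1 and at 205 in the other wildtype libraries, which differ from each other by less than 1 FPKM. Slc25a20 was at 27.99 FPKM in knockout 3 and between 40.4 and 41.1 in the other knockout libraries. Slc25a38 was at 10.9 FPKM in knockout 3 and between 12.5 and 12.9 in the others. Slc25a21 was at 9.16 FPKM in wildtype 12 and between 6.26 and 6.58 in the other wildtype libraries.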

How the results depend on the processing

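Of the 6 calls, Slc25a39 passed in 20 of 21 alternatives other than thresholds, Slc25a48 in 18 of 20, Slc25a23 in 15, Mtch2 and Slc25a22 in 14 each and Slc25a47 in 8 of 21, all with the same sign. Numbers 3 and 10 occur in the titles of both groups, but nothing says that they mark a pair, and the deviations of same-numbered libraries correlated at -0.00791 and 0.0224. With the number as a replicate block, which rests on 2 pairs, 0 members were lower and 0 higher, 0 partner genes were lower, and Mtch1, Slc25a10 and Slc25a15 turned sign (0.18, 0.042 and -0.0062).

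Members called lower numbered 1 with quantile normalization, 5 with library weights, 0 without knockouts 3 and 11, 0 at an adjusted p under 0.01 and 7 under 0.10. Members called higher numbered 0 at 0.01. Leaving out single libraries gave 1 to 4 lower and 1 to 3 higher. The median log2 change of members tested was -0.012 with median-ratio scaling, 0.0061 with quantile normalization, -0.0092 with the length trend and -0.0029 with the GC trend removed, and -0.15 to -0.022 without single libraries. Partner genes called lower numbered 7 with quantile normalization, 6 with the length trend removed, 5 at 0.01 and 9 to 12 without single libraries. Partner genes called higher numbered 1 with a mean of at least 5 FPKM, median-ratio scaling or the GC trend removed, 2 with quantile normalization, library weights, without knockouts 3 and 11 or at 0.10, and 0 to 2 without single libraries. The log2 ratio of Slc25a28 over Slc25a37 differed by -0.51 without knockouts 3 and 11, in place of -0.15. The cause of these differences was not tested.

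Changes near 0 turned sign for members that did not pass. Mtch1 was at 0.051 with median-ratio scaling, 0.13 with quantile normalization, 0.072 with the length and 0.021 with the GC trend removed, and -0.10 to 0.042 without single libraries. Slc25a10 was at 0.063 with quantile normalization and 0.027 with the length trend removed. Slc25a15 was at -0.11 without knockouts 3 and 11 and -0.017 to 0.25 without single libraries. Slc25a20 was at 0.061, 0.13, 0.058 and 0.070 with median-ratio, quantile, length and GC settings, 0.10 without knockouts 3 and 11 and -0.12 to 0.10 without single libraries. Slc25a37 was at 0.034, 0.0061 and 0.060 with median-ratio, quantile and GC settings, 0.26 without knockouts 3 and 11 and -0.16 to 0.080 without single libraries.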
